A study of Paeonia suffruticosa with 12 samples.

Results

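The 12 libraries of peony "FengDan" embryo seedlings fell into 6 that held abundant transcripts of a 2S albumin seed storage protein and 6 that held few. Libraries were put into the high kind when the 2S albumin unigene 2SS (TRINITY_DN7446_c0_g1) exceeded 1000 CPM, its count per library total multiplied by 1000000, and into the low kind otherwise, so the members were chosen by that measured level. The high libraries were CK 2, AC 1, AC 2, AC 3, AC and PVP 2, and AC and PVP 3. The low libraries were CK 1, CK 3, PVP 1, PVP 2, PVP 3, and AC and PVP 1. In the high libraries 2SS stood at 28395 CPM (CK 2), 6852, 13230 and 1436 CPM (AC 1 to 3), and 9679 and 3673 CPM (AC and PVP 2 and 3). In the low libraries it stood at 40.3 and 20.8 CPM (CK 1 and 3), 11.4, 14.7 and 44.2 CPM (PVP 1 to 3), and 311 CPM (AC and PVP 1). The library just inside the threshold was therefore AC 3, and the one just outside was AC and PVP 1. These values chose the kinds, so 2SS is left out of everything that follows.

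The seedlings were raised in culture from excised seed embryos, with 3 libraries for each of 4 media. The control medium, CK, had neither anti-browning agent. PVP was given polyvinyl pyrrolidone, a phenolic-binding polymer, at 2 g/L. AC was given activated carbon, which adsorbs compounds released into the medium, at 0.9 g/L, and AC and PVP was given both, at 0.9 and 2.5 g/L. Each sample pooled 10 embryo seedlings, and the labels give mixed roots, stems and leaves at 30 days after rooting for every group, whereas the study's text names leaves and roots and says that CK and PVP seedlings formed no roots. High and low libraries were not spread evenly over the media. All 3 AC libraries were high, all 3 PVP libraries were low, CK had 1 high of 3, and AC and PVP had 2 high of 3. Of the 6 libraries with AC, 5 were high, and of the 6 without, 1 was.

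A dicot seed fills its embryo with reserves as it matures. Storage globulins and albumins are packed into protein storage vacuoles, and triacylglycerol is packed into oil bodies whose surface carries oleosins, caleosins and steroleosins. Late embryogenesis abundant (LEA) proteins accumulate as the seed dries, and after germination the reserves are broken down and their transcripts normally disappear as the seedling takes over. Peony seeds are oil seeds, and their embryo is small and is dissected out before culture.

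Transcripts of the seed reserve programme were high together in the same 6 libraries. The 23 measured unigenes of storage proteins, oil body proteins and LEA or seed maturation proteins summed to 23926 TMM-scaled CPM in CK 2, the highest library. They summed to 4663, 18344 and 1469 in AC 1 to 3 and to 12512 and 3253 in AC and PVP 2 and 3. In the low libraries the same sum was 266 and 283 in CK 1 and 3, 250, 577 and 901 in PVP 1 to 3, and 867 in AC and PVP 1. TMM is a scaling factor that corrects library totals for composition, and it ran from 0.752 to 1.47 here. The lowest high library, AC 3, stood above the highest low library, PVP 3. With 2SS included, reserve transcripts took 5.34% of all counts in CK 2 and 0.267% in AC 3, against 0.0256% to 0.124% in the low libraries. These are bulk samples, so fewer cells holding reserves and less reserve RNA per cell cannot be told apart.

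**Figure D1:**
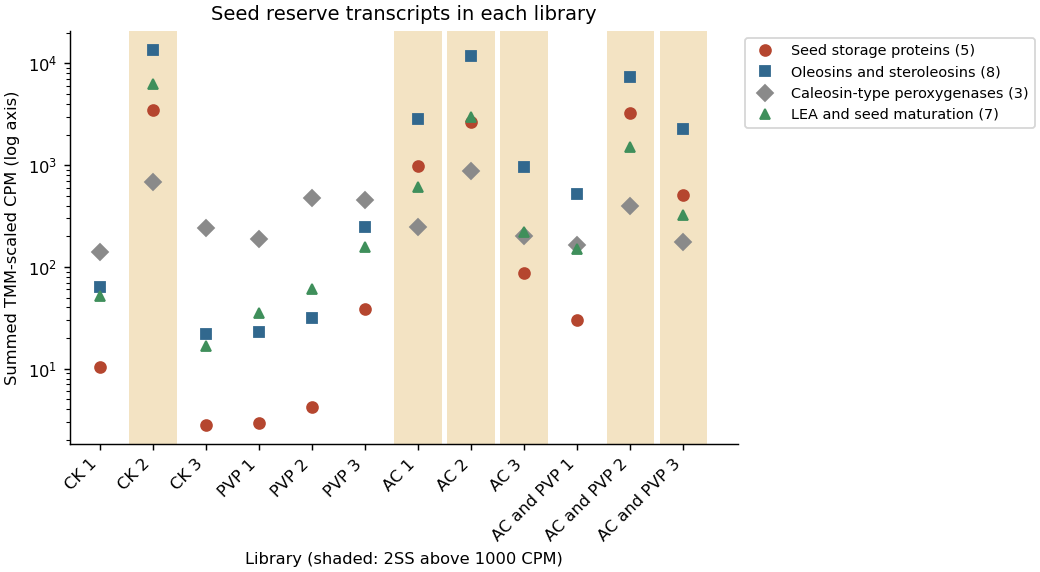
Summed TMM-scaled CPM of the seed storage proteins, oleosins and steroleosins, caleosin-type peroxygenases, and LEA and seed maturation proteins in each of the 12 libraries, on a log axis; shaded libraries had 2SS above 1000 CPM. Storage protein sums lie between 86.2 and 3469 in the shaded libraries and between 2.79 and 39.0 in the others, while the peroxygenase sums overlap.

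The 12 libraries were compared with presence of AC as a covariate, and a unigene was said to separate when all 6 high libraries lay on one side of all 6 low libraries and its AC-adjusted log2 difference exceeded 1. Of 58246 unigenes 154 separated (0.264%), with 95 higher in the high libraries (0.163%) and 59 lower (0.101%). With library sizes only, without TMM, 71 were higher and 72 lower. The median difference over all unigenes was -0.03 on the log2 scale. Because the kinds were read from the same libraries, these counts describe the libraries and carry no test. The adjusted difference leans on CK 2, the only high library without AC, and on AC and PVP 1, the only low library with AC. Without both of these libraries, kind and AC coincide and cannot be told apart.

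Of the 23 reserve and maturation unigenes 16 separated, all higher in the high libraries, where 0.163% of all unigenes were. The steroleosin unigene TRINITY_DN26416_c1_g1, counted among the 16, was kept only through the high libraries. Its place there follows in part from the filter. The remaining 7 overlapped between the kinds. The lists had been drawn from unigenes the study itself called as differentially expressed in these libraries. Their number is therefore not independent evidence, and nothing is read from its size beside that share.

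**Figure D2:**
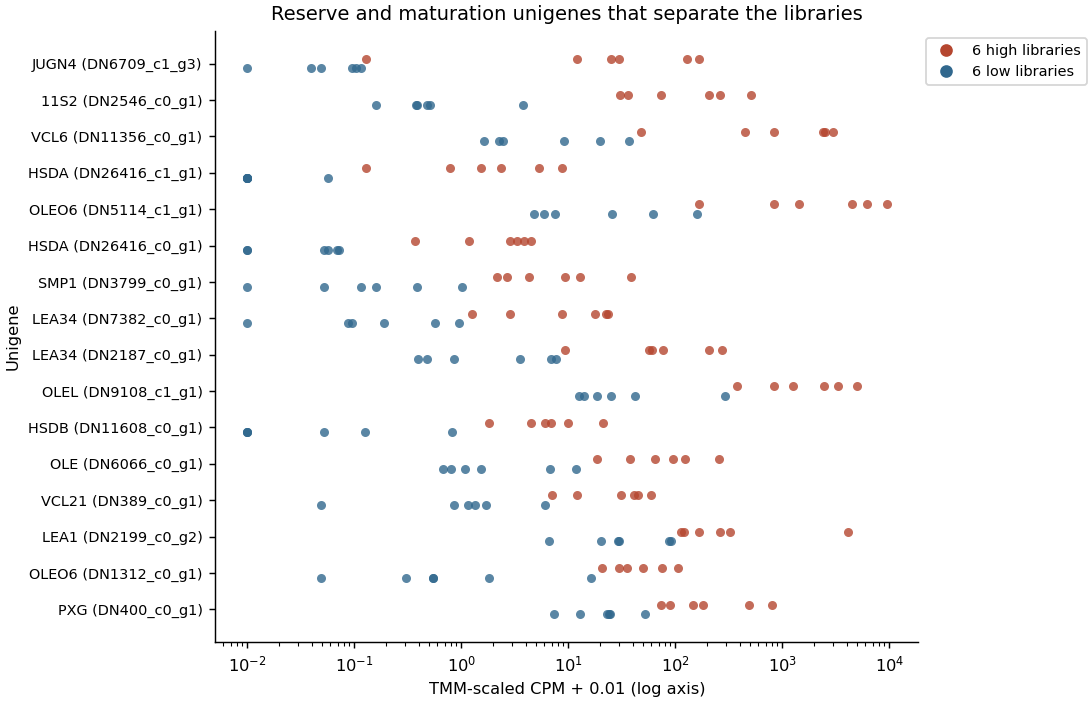
TMM-scaled CPM plus 0.01, on a log axis, of the 16 separating reserve and maturation unigenes, with 1 point for each of 6 high and 6 low libraries. In each row all points of the high libraries lie to the right of all points of the low libraries, and the gap is narrow for LEA1, where 113 faces 91.8.

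Among the storage proteins 4 of 5 unigenes separated, with a list median of 7.08 on the log2 scale. The vicilin-like globulin VCL6 (TRINITY_DN11356_c0_g1) was the most abundant of them. It ranged from 48.2 to 2966 TMM-scaled CPM in the high libraries with a median of 1615, and from 1.61 to 36.8 in the low libraries with a median of 5.78. The narrowest gap was between AC 3 at 48.2 and PVP 3 at 36.8. Its AC-adjusted log2 difference was 7.08, and it ran from 6.01 to 8.13 when each library was left out in turn.

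The legumin-type globulin 11S2 (TRINITY_DN2546_c0_g1) stood at 30.5 to 516 CPM in the high libraries (median 141) and at 0.149 to 3.74 in the low libraries (median 0.423). AC and PVP 2 had the highest level of it and AC and PVP 1 the highest among the low libraries. The log2 difference was 7.44, with 5.54 to 9.41 over the libraries left out. A second unigene matched to 11S2 (TRINITY_DN6508_c0_g1) did not separate, with AC 3 at 0.301 CPM against AC and PVP 1 at 0.332. That second unigene was at 0 in every other low library, and at 13.3 CPM in CK 2 and 18.2 CPM in AC and PVP 2. It was kept only through the high libraries, so its fold and its part in the list median are not read.

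JUGN4 (TRINITY_DN6709_c1_g3), matched to another legumin-type globulin, had the largest difference among named unigenes, 10.81 on the log2 scale with 8.62 to 11.44 over the libraries left out. Its levels were 168 CPM in CK 2, 25.1, 30.1 and 0.120 in AC 1 to 3, and 130 and 12.1 in AC and PVP 2 and 3. The low libraries held 8 counts of it in all, and none lay above 0.106 CPM. AC 3 thus separated from the low libraries by a very small margin. The vicilin-like VCL21 (TRINITY_DN389_c0_g1) was less abundant, with 6.99 to 59.3 CPM in the high libraries and 0.0388 to 6.07 in the low ones, and a log2 difference of 4.02.

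Oil body proteins followed the same pattern, and 7 of 8 oleosin and steroleosin unigenes separated with a list median of 4.93. Oleosins are the small proteins that coat oil bodies and keep them from fusing. The oleosin OLEO6 (TRINITY_DN5114_c1_g1) was the most abundant of the 23 unigenes in 5 of 6 high libraries, and OLEL was in the remaining one, AC 3. It stood at 9434 CPM in CK 2, 1431, 6163 and 166 in AC 1 to 3, and 4489 and 841 in AC and PVP 2 and 3. The low libraries lay between 4.82 and 161 CPM, so that AC 3 cleared PVP 3 by little. The log2 difference was 6.62, with 5.42 to 7.82 over the libraries left out.

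The oleosin OLEL (TRINITY_DN9108_c1_g1) was highest in AC 2 at 4955 CPM, above CK 2 at 3323. Its high libraries ran down to 378 CPM in AC 3, and its low libraries ran from 12.5 up to 292 CPM in AC and PVP 1. The log2 difference was 4.98, with 2.79 to 7.15 over the libraries left out. The other oleosins separated with smaller levels: OLE (TRINITY_DN6066_c0_g1) by 4.71 and the second OLEO6 unigene (TRINITY_DN1312_c0_g1) by 3.94 on the log2 scale. The oleosin OLE of TRINITY_DN11307_c0_g1 did not separate, since AC 1 at 70.5 CPM lay below AC and PVP 1 at 137.

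Steroleosins are sterol dehydrogenases of the oil body surface, and all 3 of their unigenes separated at low levels. HSDB (TRINITY_DN11608_c0_g1) ran from 1.81 to 21.1 CPM in the high libraries and from 0 to 0.806 in the low ones, with a log2 difference of 4.87. HSDA (TRINITY_DN26416_c0_g1) ran from 0.361 to 4.52 CPM in the high libraries and did not exceed 0.0625 in the low ones. For the companion unigene TRINITY_DN26416_c1_g1 the high libraries held 314 counts and the low libraries 1. That unigene was kept only through the high libraries, so no fold is drawn from it. Its part in the count of separating steroleosins and in the list median is not read either. Unigenes with the same symbol may share reads from similar copies, so their separate levels are uncertain.

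Caleosins are calcium-binding proteins of oil bodies, some with peroxygenase activity, and here they did not move as 1 group. PXG (TRINITY_DN400_c0_g1) separated, with 74.4 to 796 CPM in the high libraries and 7.36 to 52.7 in the low ones and a log2 difference of 3.52. The 2 unigenes matched to PXG4 overlapped between the kinds. TRINITY_DN1571_c0_g1 had medians of 66.8 CPM in the high and 149 CPM in the low libraries, and TRINITY_DN685_c0_g1 had medians of 40.7 and 50 CPM. In the 3 PVP libraries and in CK 1 and CK 3 the first of these 2 was the largest reserve transcript. Peroxygenases made up 50.6% to 85.4% of the reserve sum in those 5 libraries, against 2.83% to 13.8% in the high libraries.

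LEA and seed maturation proteins protect the drying embryo, and 4 of 7 unigenes separated with a list median of 5.14. LEA34 (TRINITY_DN2187_c0_g1) ran from 9.34 to 274 CPM in the high libraries and from 0.388 to 7.68 in the low ones. A second LEA34 unigene (TRINITY_DN7382_c0_g1) ran from 1.26 to 23.6 and from 0 to 0.948 CPM. The log2 differences were 5.14 and 5.31. The seed maturation protein SMP1 (TRINITY_DN3799_c0_g1) differed by 5.43, with 2.17 to 38.8 CPM in the high libraries and at most 1.00 CPM in the low ones.

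LEA1 (TRINITY_DN2199_c0_g2) separated also without CK 2, with a smaller difference. It stood at 4145 CPM in CK 2 but at 113 to 322 CPM in the other 5 high libraries, and at 6.64 to 91.8 CPM in the low libraries. Its log2 difference was 4.0, with 1.11 without CK 2 and 6.85 without AC and PVP 1. PM1 (TRINITY_DN3000_c0_g1), an LEA-type seed maturation protein, was likewise highest in CK 2 at 751 CPM. It did not separate, because AC and PVP 3 at 41.8 CPM lay just below AC and PVP 1 at 42.9.

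SLE2 (TRINITY_DN8530_c0_g1), another LEA-type protein, reached 2202 CPM in AC 2, 1028 in CK 2 and 1002 in AC and PVP 2. It overlapped between the kinds only through AC 3, whose 3.31 CPM lay under the 7.93 of CK 1 and the 25 of PVP 3. The last member, LEA5 (TRINITY_DN4874_c0_g1), did not follow the pattern. Its medians were 5.11 CPM in the high and 10.2 CPM in the low libraries.

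The high libraries differed in the make-up of their reserves. Within the sum over the 23 unigenes, LEA and seed maturation proteins took 26.1% in CK 2 and 9.86% to 16.3% in the other 5 high libraries. Storage proteins took 25.8% in AC and PVP 2 and 5.87% in AC 3, with 14.5% to 20.8% in the other 4. Oleosins and steroleosins took 56.6% to 69.0% in all 6. In the low library AC and PVP 1 they took 60.1%, a share inside that range, while the other 5 low libraries had 5.42% to 27.6%. AC and PVP 1 thus had a low reserve level with an oil body share like that of the high libraries.

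Reserve use was represented by few unigenes. ACEA (isocitrate lyase) and MASY (malate synthase), enzymes of the glyoxylate cycle that turns stored fat into sugar, did not separate. ACEA had its highest level in AC and PVP 3 at 29.5 CPM, ran from 4.37 to 29.5 CPM in the high libraries and reached 9.34 CPM in AC and PVP 1 among the low ones. MASY was also highest in AC and PVP 3, at 49.5 CPM, with 9.72 CPM in AC and PVP 1 and 2.24 CPM in AC 2, a library rich in reserves. The oil body lipase OBL1 ran the other way in its fitted difference, -1.46 on the log2 scale, and overlapped.

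None of the 6 unigenes of seed oil synthesis separated, and with 0.264% of all unigenes separating, nothing is read from that. Their list median was -0.23 on the log2 scale. DGAT3 (TRINITY_DN5218_c0_g1) had medians of 10.6 CPM in the high and 18.3 CPM in the low libraries. FAX4, a fatty acid exporter of plastids, was highest in CK 2 at 40.0 CPM. SEI2, a seipin of oil body formation, was at 0 in all 6 libraries without AC and did not exceed 1.26 CPM elsewhere. FAD12, a fatty acid desaturase, was at 21.8, 24.7 and 14.5 CPM in AC 1, AC 2, and AC and PVP 1, and did not exceed 0.127 CPM in any other library.

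Other named unigenes with large differences lay outside these lists. EML (TRINITY_DN2029_c1_g1) was abundant, with 285 to 11494 CPM in the high libraries and 8.67 to 110 in the low ones, and a log2 difference of 6.77. The seed-type tonoplast aquaporin TIP32 (TRINITY_DN21945_c0_g1) ran from 30.1 to 974 CPM against 0.550 to 10.1, a difference of 6.30. It was the 1 aquaporin of 7 that separated, and the list median was -0.13. The seed-type metallothionein MT4B (TRINITY_DN3407_c0_g1) stood at 1050 CPM in CK 2 and at 9.82 CPM in AC 3, against at most 6.97 in the low libraries, a difference of 7.21. GRDH (TRINITY_DN1929_c0_g1), a glucose and ribitol dehydrogenase first described in carrot embryos, differed by 6.25. OBP1A (TRINITY_DN50674_c0_g1), an oil body-associated protein, ran from 36.7 to 233 CPM against 0.349 to 26.0 CPM; it fell outside the naming rule and was chosen after its values were seen.

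Among defence-related families a few members separated and most overlapped. Of the 768 unigenes with a name 36 separated as higher (4.69%), so nothing is read from the family counts here and in the next paragraph. Both DEF unigenes, which match defensins, small cysteine-rich antimicrobial peptides, separated, out of 16 defensins and snakins. The more abundant one (TRINITY_DN1108_c0_g1) stood at 3206 CPM in CK 2, at 126 to 718 CPM in the other high libraries and at 10.2 to 84.9 CPM in the low ones. The differences were 4.04 and 4.07 on the log2 scale. PRU1 (TRINITY_DN6344_c0_g1), of the PR-10 family, was the only separating member of 13, with 119 to 700 CPM in the high libraries and 0.427 to 49.3 in the low ones.

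NLTP2 (TRINITY_DN16476_c0_g1) was the only one of 33 lipid transfer protein unigenes that separated. The high libraries held 347 counts and the low libraries 1. It was kept only through the high libraries, so no fold is drawn from it. Metallothioneins had 2 of 13 separating, MT4B and MT2 (TRINITY_DN70247_c0_g1), and a list median of 3.35. MT2 was highest in AC and PVP 3 at 154 CPM. HSP41 (TRINITY_DN1728_c0_g1), the one separating small heat shock protein of 8, was highest in AC 2 at 247 CPM, with 8.98 to 27.3 CPM in the other high libraries and at most 5.4 in the low ones.

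Of the 768 unigenes with a name 36 separated as higher and 6 as lower. The 6 lower ones differed far less than the reserve unigenes. NAT4 (TRINITY_DN8691_c0_g1), a nucleobase transporter, ran from 0.156 to 0.539 CPM in the high libraries and from 0.853 to 4.69 in the low ones, a log2 difference of -1.98. PRE6 (TRINITY_DN74322_c0_g1), a small helix-loop-helix regulator of cell elongation, had medians of 0.923 and 4.96 CPM and a difference of -1.82. The GPI-anchored lipid transfer protein LTG21 (TRINITY_DN2036_c0_g1) differed by -1.62.

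Among the lower ones 2 belong to phenolic metabolism. The phenylalanine ammonia-lyase PALY (TRINITY_DN2415_c0_g1), the entry enzyme of the phenylpropanoid pathway, stood at 34.7 to 74.4 CPM in the high libraries and at 86.3 to 229 in the low ones, a difference of -1.07. It was the only one of 11 phenylpropanoid unigenes that separated. The class III peroxidase PER72 (TRINITY_DN225_c0_g1) ran from 5.70 to 13.6 CPM against 14.2 to 72.4, a difference of -1.79, and was the only one of 11 peroxidases. OSP4 (TRINITY_DN554_c1_g1) was the most abundant lower unigene, with 131 to 698 CPM against 718 to 2343 and a difference of -1.51.

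Unigenes with no name also separated. TRINITY_DN17859_c0_g1 stood at 27.0 to 2473 CPM in the high libraries and at 0.438 to 10.6 in the low ones. TRINITY_DN48470_c0_g1 was at 0 in all 6 low libraries and had 201 counts in the high ones. It was thus kept through the high libraries alone, and no fold is drawn from it. In the other direction TRINITY_DN216_c0_g4 did not exceed 0.0671 CPM in the high libraries and ran from 0.169 to 13 in the low ones. TRINITY_DN97161_c0_g1 had medians of 0.802 and 2.58 CPM.

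**Figure D3:**
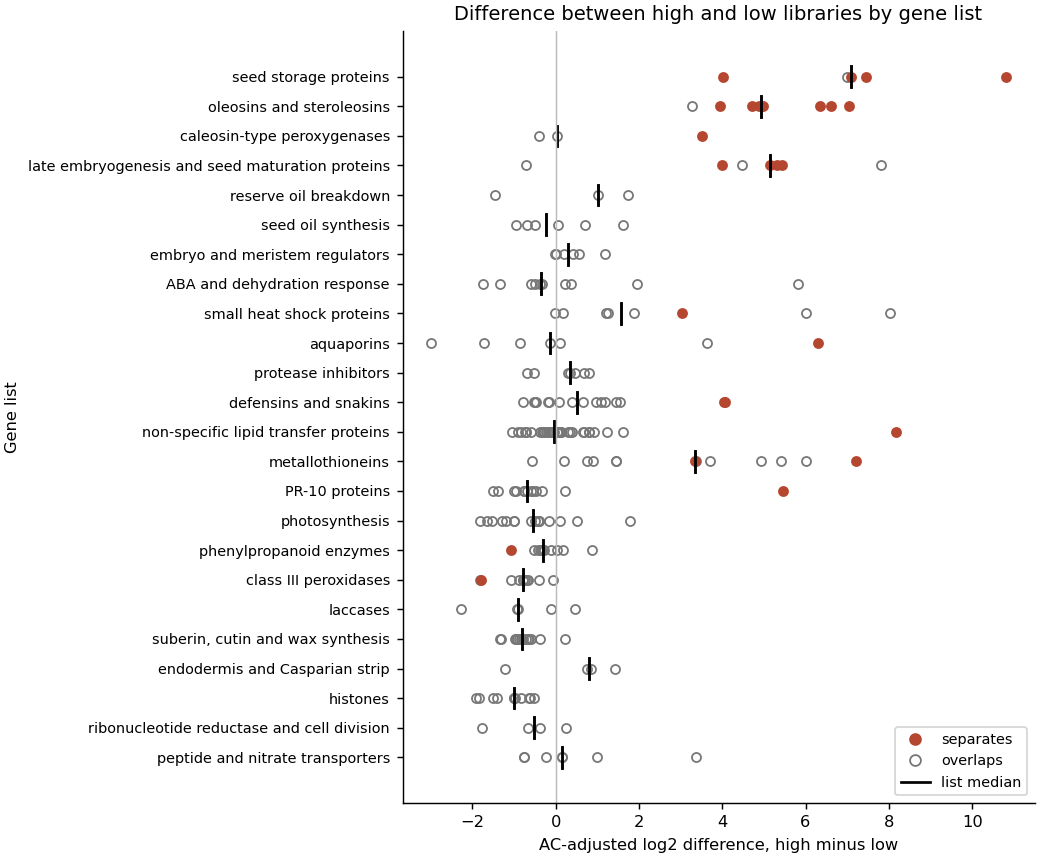
AC-adjusted log2 difference (high minus low) of each member of 24 gene lists, with filled points for unigenes that separate and a black tick at the list median. Storage proteins, oleosins and LEA proteins have medians of 7.08, 4.93 and 5.14, and metallothioneins have 3.35; the median of all unigenes is -0.03.

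No unigene separated among those of photosynthesis (16 unigenes), histones (11), suberin, cutin and wax synthesis (15), laccases (5) and endodermis (4). With 0.264% of all unigenes separating, nothing is read from that. Their list medians were -0.55, -0.99, -0.82, -0.90 and 0.81. All 11 histone and all 11 peroxidase unigenes had fitted differences below 0, but the list medians were not lower within both mixed media. The median ratio of CK 2 to the mean of CK 1 and 3 was 1 for histones and 0.434 for peroxidases. That of the mean of AC and PVP 2 and 3 to AC and PVP 1 was 1.01 and 1.496. Past 2-fold without overlap, 7 of 11 peroxidases were lower in the CK comparison, and 2 were higher and 0 lower in the other. Over all 58246 unigenes those counts were 1112, 780 and 782. Among the 768 with a name they were 106, 92 and 28, and nothing is read from the peroxidase counts. In the marker lists, 11 leaf unigenes summed to 43.6 to 510 CPM in the high libraries and to 82.1 to 578 in the low ones. The 6 root endodermis unigenes summed to 32.5 to 51.0 CPM in the high libraries and to 41.1 to 229 in the low ones, with all 6 above 0 in every library. Total counts ran from 11071691 to 21323137 in the high libraries and from 19446758 to 25069044 in the low ones. The part of these tissue levels and of depth in the reserve pattern was not tested.

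The likeness of whole profiles was also examined. Over 58223 unigenes without the reserve members, its log2 levels were nearest to AC 2 (Pearson's r = 0.959), while CK 1 and CK 3 were nearest to each other (r = 0.965). AC and PVP 1 was nearest to AC and PVP 3 (r = 0.974), a high library of its own medium. Of the 12 libraries 9 had their nearest neighbour in their own medium, and these correlations run across genes, which are not independent replicates. CK 2 was thus the one CK library nearest to a library with AC, and AC and PVP 1 was nearest to a library of its own medium.

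The libraries of one medium were also compared among themselves, which holds the labelled treatment constant. CK 2 was set against the mean of CK 1 and 3, and the mean of AC and PVP 2 and 3 against AC and PVP 1, each on TMM-scaled CPM plus 0.5. Of 58246 unigenes, 197 were over 2-fold higher without overlap in both comparisons (0.338%) and 53 were lower in both (0.091%). With library sizes only, 152 were higher and 145 lower. All 5 storage proteins and all 8 oleosins and steroleosins were among the higher ones, as were 1 of 3 peroxygenases and 5 of 7 LEA and seed maturation proteins. These include the second 11S2 and the second HSDA unigene, both kept only through the high libraries. This is a description of 1 library against 2, and it carries no test.

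The size differed between the media. The median ratio of the storage proteins was 315 in CK and 65.2 in AC and PVP, and that of the oleosins and steroleosins was 65.2 and 6.03. VCL6 had ratios of 480 and 73.8, and OLEO6 (TRINITY_DN5114_c1_g1) had ratios of 575 and 42.3. LEA1 had 223 and 2.04, and MT4B had 1038 and 11.5. SLE2 had 201 and 233, and the PXG4 unigene TRINITY_DN1571_c0_g1 had 0.886 and 1.55. Of the 6 named lower unigenes, PRE6 had ratios of 0.263 and 0.400, and NAT4 had 0.318 and 0.709.

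**Figure D4:**
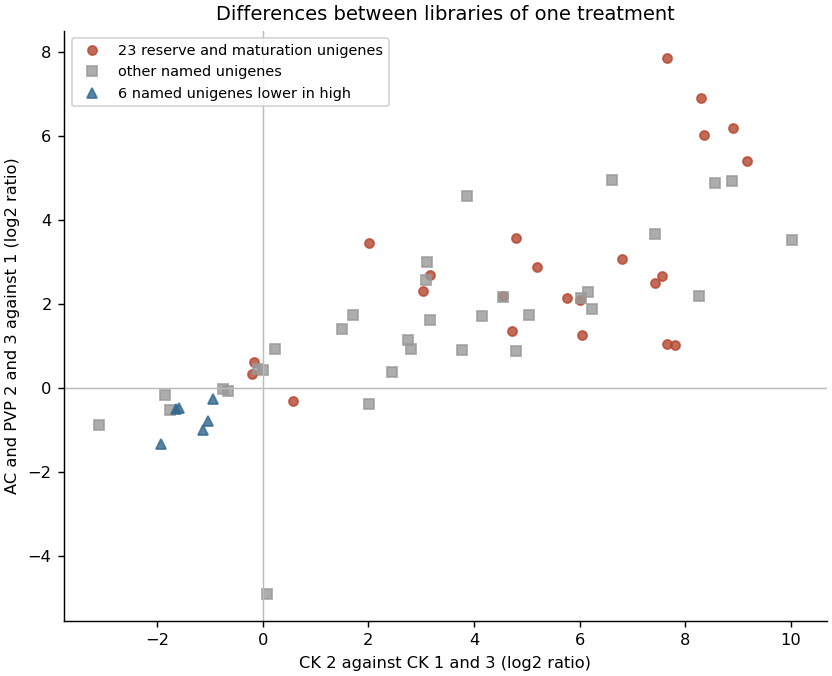
Log2 ratio of CK 2 to the mean of CK 1 and 3 (x axis) against that of the mean of AC and PVP 2 and 3 to AC and PVP 1 (y axis) for the named unigenes, each on TMM-scaled CPM plus 0.5. Of the 23 reserve and maturation unigenes 19 lie past 2-fold in the upper right without overlap between libraries. PM1 also lies there, at ratios of 201 and 2.06, but its libraries overlap. The 6 named lower unigenes lie below 0 on both axes.

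The labelled treatments were tested with edgeR's quasi-likelihood fit of all 12 libraries. The mean AC effect is the average of AC vs. CK and of AC and PVP vs. PVP, 6 libraries on each side. DEGs had to pass 0.05 on the adjusted p and a log2 fold change of 1 in size, and 449 of 58247 unigenes did (0.771%). Of the 23 reserve and maturation unigenes 1 was a DEG, HSDB, which rose by 5.33 ± 1.17 (SE, n = 6 against 6; adjusted p = 0.046). Its level was 7.77 ± 7.33 CPM with AC and 0.775 ± 1.82 without (SD, n = 6 each). This call was weak: it was lost in 8 of 12 fits that left out 1 library (CK 3, any PVP library, AC 1, AC 2, AC and PVP 2, or AC and PVP 3; edgeR adjusted p up to 0.12) and under robust estimation (edgeR adjusted p = 0.25). At an unadjusted p under 0.05 by edgeR there were 18 of 23, where 6534 of 58247 unigenes and 583 of the 768 with a name passed it. DESeq2 called 4 higher and 1 lower of the 23, where it called 1.62% of all unigenes.

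The other 22 did not pass, and libraries of one treatment differed widely in them. OLEO6 (TRINITY_DN5114_c1_g1) was at 2192 ± 2533 CPM with AC and 1607 ± 3835 without (SD, n = 6 each), with a log2 fold change of 2.34 ± 1.38 (SE; edgeR adjusted p = 0.54). VCL6 had 3.17 ± 1.40 (edgeR adjusted p = 0.42), and LEA1 had -0.51 ± 0.92 (edgeR adjusted p = 0.87). The list median over the 23 was 2.56, where that of all unigenes was -0.10. In AC vs. CK there were 189 DEGs (0.324%), 105 higher and 84 lower, and with library sizes only 71 higher and 167 lower, when the median of all unigenes moved from -0.24 to -0.57. In AC vs. CK edgeR called none of the 23, and DESeq2 called none. By edgeR 2 were at an unadjusted p under 0.05, where 5437 of 58247 unigenes were.

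The calls depended on CK 2, and also on the filter and the model. In the mean AC effect of all 12 libraries, edgeR called 19 of 23 as higher with no filter. With a replicate block it called 14. Over all unigenes those runs called 1042 and 518 as higher. Without CK 2, edgeR called 19 of 23 as higher in the mean AC effect and 9 in AC vs. CK. There it called 0.788% and 0.445% of all unigenes as higher. Without CK 2 and AC and PVP 1 together it called 20 and 10, where the shares of all unigenes were 0.625% and 0.415%. Both libraries stand out by the very transcripts under test, so those counts are no independent support for an AC effect on reserves. With reserve status as a further term in the fit, edgeR called none of the 23 in the mean AC effect, and the list median was -0.07. There were 5 at an unadjusted p under 0.05, where 3939 of 58247 unigenes were. Status was read from 2SS, itself a reserve transcript, so this loss of calls follows from the choice of term and is given as a description only.

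That term also lowered the count over all unigenes. The mean AC effect then had 54 DEGs (0.0927%), 46 of which were DEGs without it, and AC vs. CK had 3 (0.00515%). The median absolute log2 fold change of the 449 unigenes was 2.18 without the term and 2.07 with it, and all 449 kept their direction. Since kind and AC nearly coincide, the design alone, in an unweighted fit, widens the standard error of the mean AC effect 1.41-fold. The DEG counts of both fits therefore differ in precision as well as in what they adjust for.

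**Figure D5:**
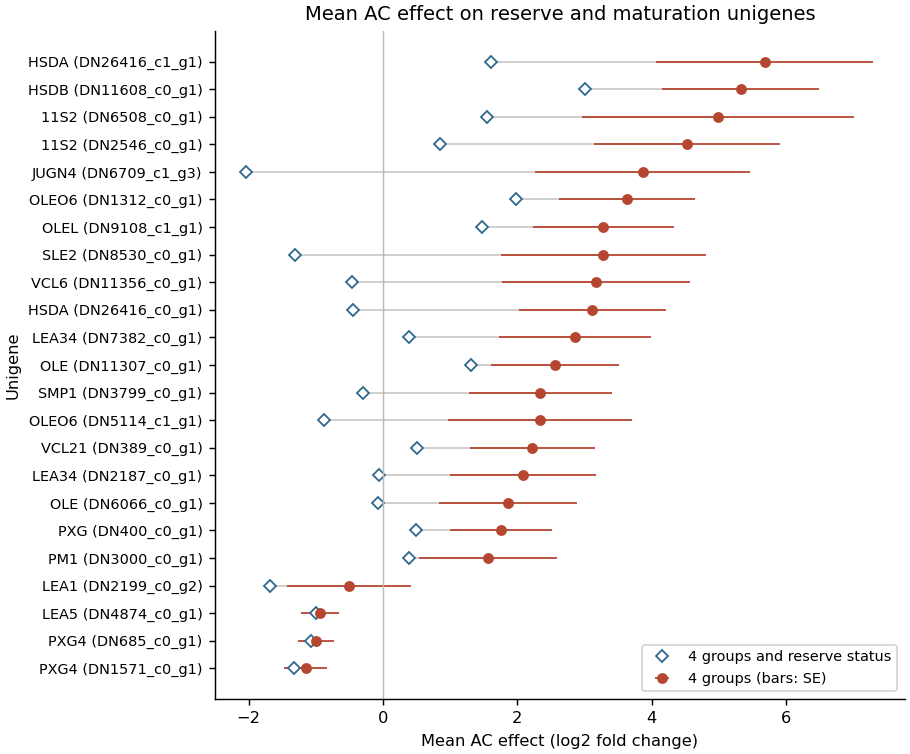
Log2 fold change of the mean AC effect for the 23 reserve and maturation unigenes, with SE bars for the fit on the 4 groups (filled) and without bars for the fit that adds reserve status (open). The list median goes from 2.56 to -0.07, and HSDB is the 1 DEG of the first fit and no DEG of the second.

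Among the 6 seed oil synthesis unigenes, 3 were DEGs of the mean AC effect and none separated the kinds. Over all unigenes 0.771% were DEGs of that effect. Among the 768 with a name, 114 were higher and 119 lower, so nothing is read from the list count. FATB (TRINITY_DN10366_c0_g1), an acyl carrier protein thioesterase that releases saturated fatty acids, fell by 2.81 ± 0.33 on the log2 scale with AC (edgeR adjusted p = 0.00089). CK 2 held 1.98 CPM, below the 2.41 to 5.88 of the other libraries without AC, and the libraries with AC held 0.208 to 1.14. WRI1 (TRINITY_DN57794_c0_g1), the regulator of seed oil synthesis, fell by 2.96 (edgeR adjusted p = 0.007) and did not exceed 0.335 CPM with AC. FAD12 rose by 7.73 (edgeR adjusted p = 0.0061), although it was at 0 in 3 of the 6 libraries with AC. The calls of FATB and WRI1 held whichever library was left out, and that of FAD12 was lost without AC and PVP 1 (edgeR adjusted p = 1.0). With the reserve status term the log2 fold change was -2.48 for FATB (edgeR adjusted p = 0.065), -3.25 for WRI1 (edgeR adjusted p = 0.10) and 12.09 for FAD12 (edgeR adjusted p = 0.0019), so the calls of FATB and WRI1 were lost while their folds stayed near their size.

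Of the lower unigenes, NAT4, PER72, OSP4 and PALY were also DEGs of the mean AC effect. NAT4 fell by 2.79 ± 0.44 (edgeR adjusted p = 0.0059), OSP4 by 2.35 ± 0.42 (edgeR adjusted p = 0.015), PER72 by 1.34 ± 0.29 (edgeR adjusted p = 0.045) and PALY by 1.13 ± 0.22 (edgeR adjusted p = 0.025). With 1 library left out the call of NAT4 always held, that of OSP4 was lost without AC and PVP 3 (edgeR adjusted p = 0.057), that of PALY was lost in 8 of 12 fits (edgeR adjusted p up to 0.10) and that of PER72 in 11 of 12, all but the one without CK 2 (edgeR adjusted p up to 0.17). These unigenes were named because they separate the kinds, which nearly coincide with AC, so their AC calls are not independent of that choice. HSP41 rose by 4.11 ± 0.66 (edgeR adjusted p = 0.0071), and its call held whichever library was left out. Under robust estimation the calls of HSP41 (edgeR adjusted p = 0.10) and OSP4 (edgeR adjusted p = 0.061) were lost. Those of NAT4, PER72 and PALY held there. With the reserve status term none of these unigenes was a DEG (edgeR adjusted p from 0.25 for HSP41 to 0.86 for PER72). The interaction of AC and PVP had 1 DEG (0.00172%), and none of the 23 reserve members passed it. By edgeR 11 of them were at an unadjusted p under 0.05, where 4349 of 58247 unigenes were.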

How the data were processed

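Estimated counts per unigene of 12 libraries (4 groups of 3) were deposited by the authors, who trimmed reads with TrimGalore 0.6.4, assembled them with Trinity 2.4.0, aligned them with Bowtie 1.2.3 and counted with RSEM 1.3.3, with no normalization for depth. Between 2.39% and 3.97% of values per library were not whole, and all were rounded. Totals ran from 11071691 to 25069044. Of 130956 unigenes, the 58247 counted in 3 or more libraries were kept. Names, 769 in all, come from the study's supplementary lists of differentially expressed unigenes.

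Members and lists were chosen with earlier results of these data known. High and low libraries were described by separation and an AC-adjusted log2 difference (edgeR 4.0.16, limma 3.58.1, R 4.3.3, TMM). Labelled treatments were tested with edgeR's quasi-likelihood fit and Benjamini-Hochberg adjustment over all unigenes; the SE is the absolute log2 fold change over the square root of F. On simulated data the fit recovered most changes of 4-fold or more but made several times more false calls than its threshold allows, fewer under the filterByExpr filter, so adjusted p-values near the threshold are weak evidence. DESeq2 1.42.0 was an alternative, beside other filters, scalings, thresholds, a replicate block and each library left out.

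Text names all members of the storage, oil body, LEA, oil breakdown and oil synthesis lists; among separating named unigenes with a mean of at least 1 CPM, the 12 with the largest difference in each direction; up to 4 separating members of every other list; and 2 unnamed unigenes in each direction. Nothing says that same-numbered samples of different groups share a batch, and samples are pools of 10 seedlings, so p-values measure the spread between such pools. No reference sequence was used here.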

Additional observations from a re-analysis of the deposited data

Results flagged for a closer look

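The sums of each gene list over the 6 libraries with AC and the 6 without were searched for a library far from the others, and 10 of 48 were found. The rule flags about 1 in 20 by chance only for independent sums with a normal spread, which was not shown here. The lists were chosen with these data known, and CK 2 was the only high library without AC. Its flags in the reserve lists therefore follow from how the kinds were chosen, and nothing is read from the number of flags. CK 2 stood far above the other 5 libraries without AC in seed storage proteins (3470 TMM-scaled CPM against at most 39.0), oleosins and steroleosins (13500 against 248), late embryogenesis and seed maturation proteins (6240 against 158), small heat shock proteins (748 against 182) and defensins and snakins (8840 against 2770). AC 2 stood far above the other 5 with AC in caleosin-type peroxygenases (880 against 393) and small heat shock proteins (3460 against 1020). AC and PVP 3 did so in reserve oil breakdown (91.8 against 38.4). AC and PVP 2 did so in PR-10 proteins (4220 against 1910) and laccases (58.8 against 30.7).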

How the results depend on the processing

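Of the 62 named unigenes 46 separated, and the difference of none of these changed sign in any alternative run. Of the 23 reserve and maturation unigenes, 13 to 19 separated under the alternatives run, with 13 for library sizes only and for a 2SS threshold of 5000 CPM, and 14 for one of 100 CPM. The 154 separating unigenes became 100 with the filterByExpr filter, 377 with 2SS above 100 CPM and 110 with an absolute log2 difference over 2. With 1 library left out they ran from 195 to 458, the highest without AC and PVP replicate 1, with 241 without PVP 3, 240 without AC 3 and 236 without AC and PVP 2. The 250 unigenes past 2-fold within both media became 876 with a pseudocount of 0.1, 140 with one of 2 and 74 at 4-fold. The 449 DEGs of the mean AC effect became 2176 with no filter, 946 with DESeq2, 54 with reserve status added and 1121 with the replicate block. With 1 library left out they ran from 197 (without AC and PVP 3) to 819 (without CK 2), with 251 without PVP 2, 285 without PVP 3, 284 without AC 2, 270 without AC 3 and 260 without AC and PVP 1. The 189 DEGs of AC vs. CK became 1882 with no filter, 823 with DESeq2, 722 with the replicate block, 3 with reserve status added and 389 without CK 2 and AC and PVP 1. With 1 library left out they ran from 0 (without CK 3, with 4459 unigenes at an unadjusted p under 0.05 by edgeR; DESeq2 was not run without that library) to 427 (without CK 2), with 10 without CK 1, 65 without AC 2 and 11 without AC 3. Among the 23 reserve members, no filter gave 19 higher and 1 lower in the mean AC effect, and the replicate block gave 14 and 1. Over all unigenes no filter gave 1042 higher and 1134 lower, and the replicate block gave 518 and 603. The run with no filter tested every unigene with a count, a larger set than the 58247 of the main fit. The deviations of same-numbered libraries of different groups had correlations from -0.132 to 0.208 over 18 pairs. Those of replicate 1 ran from 0.0366 to 0.193, and those of replicates 2 and 3 lay on both sides of 0. Whether same-numbered libraries share a batch was not tested. By definition a stricter fold or log2 cut can only lower these counts. Fewer libraries also make the demand for separation easier to meet. How far that accounts for the higher counts was not tested, nor was the cause of the other shifts. Depth limits JUGN4, HSDA and NLTP2, which had 8 or fewer counts in the low libraries together.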
